A study of Mus musculus with 20 samples.

Results

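The genes described here are 10 genes of the epidermal barrier and of keratinocyte differentiation, namely Lor, Flg, Flg2, Ivl, Krtdap, Sbsn, Dmkn, Sfn, Tgm1 and Trp63, chosen by name. Flg was not analysed here, and the other 9 were followed among the 24062 gene symbols counted in 20 libraries. These genes and the lists set beside them were chosen with earlier results of these data known. Their counts of calls beside shares over all genes are therefore a description. The libraries hold RNA of sorted dermal LECs (lymphatic endothelial cells, CD31+podoplanin+) from the ear skin of wild type C57BL/6 mice at post natal day 56. LECs were collected at ZT1, ZT7, ZT13 and ZT19, where ZT (zeitgeber time) counts the hours of the light cycle from lights on, with 5 replicates per time point. Each replicate was a pool of 4 ears from 2 mice, and no group differed in genotype, strain or treatment. Since cells were pooled in bulk, fewer cells of a type and less RNA per cell cannot be told apart in any value below.

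The epidermis renews itself from a basal layer, where the transcription factor p63 (gene Trp63) maintains the keratinocyte programme together with keratins 5 and 14. Cells that leave this layer switch to keratins 1 and 10, secrete small peptides, and finally build the cornified envelope, in which involucrin and loricrin are cross-linked by transglutaminase 1 under the plasma membrane, around the keratin filaments that filaggrin-type proteins bundle. These genes are best known as products of keratinocytes, so a sorted LEC library is not where they are usually measured. All 9 genes nevertheless had counts and passed the filter on low counts.

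The members fell into chromosome clusters. On chromosome 7 (GRCm38, GENCODE M21), Sbsn (30751471 to 30756134), Dmkn (30763756 to 30781063) and Krtdap (30787896 to 30791097) lie on the plus strand within 39.6 kb, and these 3 are the only protein-coding genes of that span. On chromosome 3, the epidermal differentiation complex, Lor (92080271 to 92083142, minus strand), Ivl (92570902 to 92573735, minus strand) and Flg2 (93197278 to 93221391, plus strand) lie with Flg in a span of 1213.4 kb that holds 52 protein-coding genes. Sfn is a gene of 1 exon on chromosome 4 (133600556 to 133602168, minus strand), Tgm1 lies on chromosome 14 (55700009 to 55713926, minus strand) and Trp63 on chromosome 16 (25683763 to 25892102, plus strand). Sbsn shares 279 exon bases with Tmem147os on the same strand, and Tgm1 shares 182 exon bases with the antisense gene Gm49067. Neither of the latter genes was analysed here. Reads in the stretch of Sbsn can come from either gene of the strand, and those in the stretch of Tgm1 could not be assigned with certainty, since the strand setting of the counting is not given in the sources used here.

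Since 6 of the members lie in these clusters, the stretches before their start sites are shown to let their sequences be compared. RefSeq windows (GRCm38.p6) were found for 8 of the 9 members, without Trp63, and the 250 bases before the start site were searched on both strands for the AP-1 letters TGANTCA, for TATAAA, for the E-box CACGTG and for the D-box TTANGTAA. The AP-1 letters stood in 6 of the 8 members, compared with 6.75% of 32851 windows of the same length and 7.82% of the 27025 genes with a window. All 6 are the members of the clusters on chromosomes 7 and 3, and the windows of Sfn and Tgm1 held no match. Among the other cornified envelope and filaggrin-type genes, 6 of 28 with a window (21.4%) held the AP-1 letters. TATAAA stood before Krtdap, Lor and Ivl (12.4% of all windows), whereas the E-box and the D-box, which clock proteins can bind, were in none of the 8 (6.02% and 2.06% of all windows). These are matches of letters, not sites of binding. The first base of the AP-1 match lies at -119 in Sbsn, -89 in Dmkn, -81 in Krtdap, -48 in Lor, -116 in Ivl and -69 in Flg2, counted from the base before the start site as -1. The windows of the 6 members are given 5′ to 3′ on the strand of the gene, with AP-1 matches and TATAAA in capitals.
Sbsn, chr7:30751221-30751470, plus strand: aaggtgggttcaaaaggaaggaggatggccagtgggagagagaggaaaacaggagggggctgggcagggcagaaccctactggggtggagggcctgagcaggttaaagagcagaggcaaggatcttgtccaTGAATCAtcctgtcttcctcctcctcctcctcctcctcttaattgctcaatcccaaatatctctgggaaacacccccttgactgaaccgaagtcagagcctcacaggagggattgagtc
Dmkn, chr7:30763506-30763755, plus strand: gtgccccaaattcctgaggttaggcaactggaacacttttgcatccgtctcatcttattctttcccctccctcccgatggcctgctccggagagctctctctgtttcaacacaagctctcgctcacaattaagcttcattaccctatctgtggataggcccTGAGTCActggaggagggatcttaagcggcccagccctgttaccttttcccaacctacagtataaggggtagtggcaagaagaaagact
Krtdap, chr7:30787655-30787904, plus strand: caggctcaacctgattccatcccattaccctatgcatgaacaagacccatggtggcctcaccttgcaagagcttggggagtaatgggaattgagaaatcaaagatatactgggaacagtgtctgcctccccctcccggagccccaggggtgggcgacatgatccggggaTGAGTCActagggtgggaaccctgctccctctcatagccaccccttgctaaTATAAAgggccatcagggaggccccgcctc
Lor, chr3:92083143-92083392, minus strand: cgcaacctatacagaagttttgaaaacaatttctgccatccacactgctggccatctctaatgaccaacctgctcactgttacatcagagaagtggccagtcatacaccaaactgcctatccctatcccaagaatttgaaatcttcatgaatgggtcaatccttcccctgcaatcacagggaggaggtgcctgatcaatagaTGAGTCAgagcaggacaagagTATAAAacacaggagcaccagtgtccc
Ivl, chr3:92573736-92573985, minus strand: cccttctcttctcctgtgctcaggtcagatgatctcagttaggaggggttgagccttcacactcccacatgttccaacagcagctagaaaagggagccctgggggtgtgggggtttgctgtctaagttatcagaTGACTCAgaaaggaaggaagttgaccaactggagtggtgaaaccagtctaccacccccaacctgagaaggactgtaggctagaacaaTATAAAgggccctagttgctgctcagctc
Flg2, chr3:93197023-93197272, plus strand: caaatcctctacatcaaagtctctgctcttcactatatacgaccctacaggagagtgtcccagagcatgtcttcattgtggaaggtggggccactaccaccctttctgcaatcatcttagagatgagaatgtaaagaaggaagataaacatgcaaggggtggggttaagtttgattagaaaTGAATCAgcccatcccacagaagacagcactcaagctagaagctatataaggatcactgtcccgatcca

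Read depth differed between libraries and bears on the sparse members. Between 4475111 and 42002363 counts fell on genes (median 9379794). Of the uniquely placed reads, whether inside or outside annotated genes and with ambiguous reads left aside, 20.2 to 29.5% were counted on genes at ZT1, 12.7 to 62.3% at ZT7, 20.1 to 79.9% at ZT13 and 35.0 to 81.6% at ZT19. The share of reads on genes therefore moved with the time point, and its part in the results below was not tested beyond the fits named beside them. Of 10 LEC markers 9 had counts in every library, and Ccl21a had 0 counts in all of them. Among the 9 were Prox1, the master regulator of lymphatic identity, at 1276 to 4490 and the hyaluronan receptor gene Lyve1 at 6393 to 29894 normalized counts. A normalized count is a count divided by the effective library size (trimmed mean of M-values, TMM) scaled to a geometric mean of 1 over all libraries.

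Levels of the members differed widely. Per kilobase of exon, the mean level over the 20 libraries was 5775 normalized counts for Krtdap, 681 for Sfn, 622 for Dmkn, 133 for Trp63 and 118 for Sbsn. The cornified envelope genes were much lower, at 12.6 for Ivl, 10.7 for Tgm1, 7.77 for Lor and 2.03 for Flg2. On the same scale Krt14 had 15976, Krt5 6362, Krt10 1666, Lyve1 5687 and Prox1 322. Krtdap, which encodes a secreted keratinocyte peptide, thus stood close to Lyve1 in the mean per kilobase pooled over time points. Its median of 2149 normalized counts per kilobase was below the 5594 of Lyve1, and at ZT13 the means were 369 and 4916. The envelope genes had means of 13.8 to 42.2 normalized counts before division by length.

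**Figure D1:**
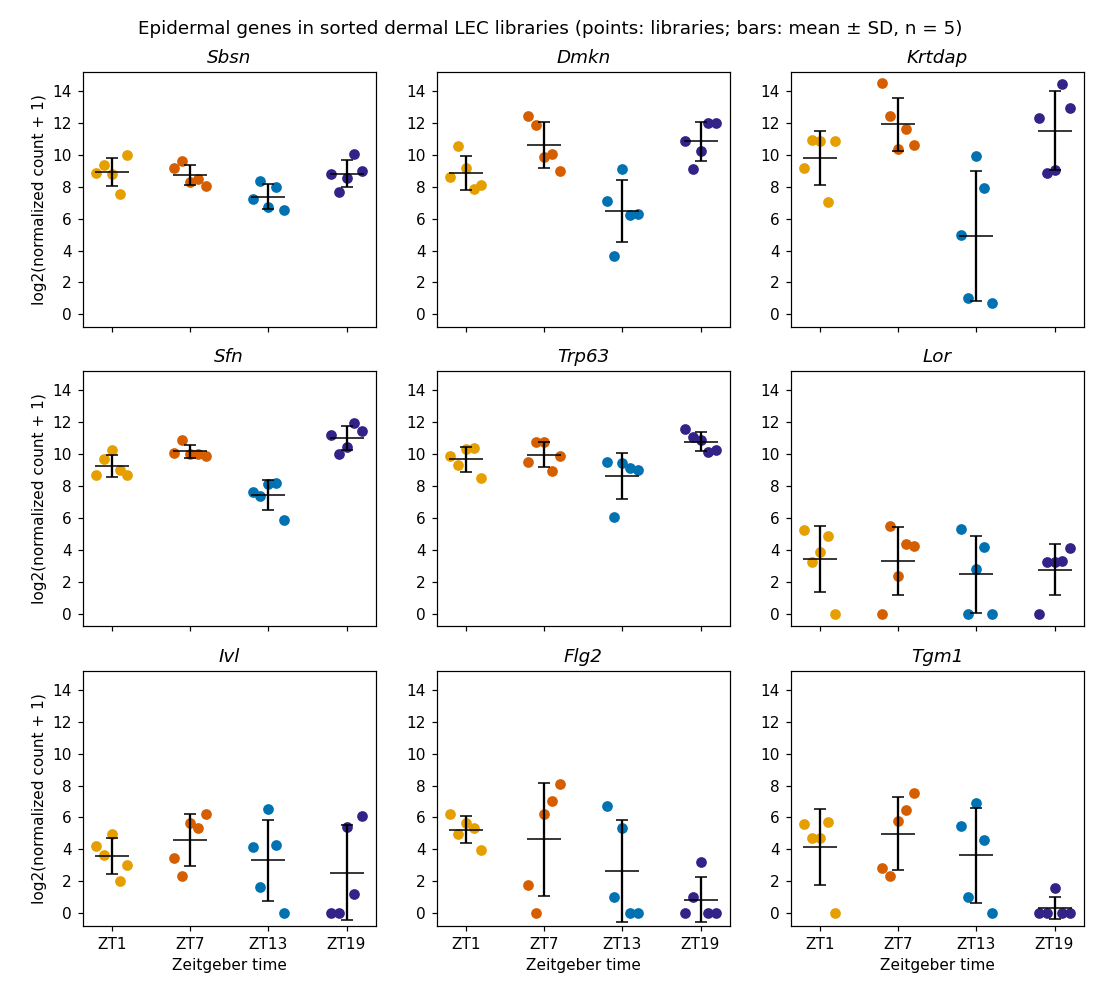
Level of each member in every library on a log2 scale, log2(normalized count + 1), by zeitgeber time. Points are libraries and bars give the mean ± SD of 5 libraries. Sbsn, Dmkn, Krtdap, Sfn and Trp63 have their lowest mean at ZT13, whereas Lor, Ivl, Flg2 and Tgm1 scatter down to 0 counts.

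The 5 abundant members had their lowest means at ZT13. Among the 4 time points, Sfn and Dmkn, 2 of the 9 members, passed the threshold (edgeR quasi-likelihood F-test, adjusted p under 0.05 over 19209 genes), where 0.422% of all genes tested did, and 6 members had an unadjusted p under 0.05, as had 15.7% of all genes. Sfn and Dmkn were likewise the members that rose from ZT13 to ZT19, where 0.5% of all genes tested were called higher at ZT19 (1.63% without ZT13 replicate 5). Between ZT7 and ZT13 only Sfn of the members was called, and it was higher at ZT7, as were 0.0781% of the genes tested.

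Sfn encodes stratifin, an adaptor protein of stratified epithelia that binds phosphorylated partners, and is known as a gene under the control of p63. It had 415.5, 832.1, 1251, 513.8 and 416.6 normalized counts in replicates 1 to 5 at ZT1. At ZT7 it had 1095, 1886, 1028, 1038 and 957 normalized counts. At ZT13 it had 197.8, 163.3, 283.6, 291 and 58.7 normalized counts, so that each ZT13 library lay below each library of the other 3 time points. The share of all genes with ranges set apart in this way was not counted, here or for the members below. At ZT19 it had 2310, 1044, 1409, 4020 and 2763 normalized counts. The mean was 2309 ± 1177 (SD, n = 5) at ZT19 and 199 ± 95.6 (SD, n = 5) at ZT13. The log2 fold change from ZT13 to ZT19 was 3.54 (standard error 0.46, adjusted p = 0.000209, edgeR), and among the 4 time points the adjusted p was 0.00178 (edgeR). Sfn kept both calls without any 1 library and under each other setting, with an adjusted p of up to 0.00660 among the time points and 0.00630 between ZT13 and ZT19. From ZT7 to ZT13 the log2 fold change was -2.60 (standard error 0.44, adjusted p = 0.0155, edgeR), and this call was lost without ZT7 replicate 2 (adjusted p = 0.0747) or ZT13 replicate 2 (adjusted p = 0.0568).

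Dmkn encodes dermokine, a secreted protein of suprabasal keratinocytes. It had 397, 1527, 572.9, 235.2 and 280.2 normalized counts in replicates 1 to 5 at ZT1. At ZT7 it had 5509, 3667, 922.4, 1080 and 506.8 normalized counts. The ZT13 libraries held 134.4, 11.7, 563.3, 73.6 and 76.2 normalized counts, and ZT13 replicate 3 stood apart from the other 4 as the highest. At ZT19 it had 1879, 557.9, 1196, 4073 and 3992 normalized counts, so that the groups overlapped by ZT13 replicate 3 and ZT19 replicate 2 only. The log2 fold change from ZT13 to ZT19 was 3.79 (standard error 0.81, adjusted p = 0.0224, edgeR). This call was lost without ZT13 replicate 1 (adjusted p = 0.0605), ZT13 replicate 4 (adjusted p = 0.0675) or ZT19 replicate 5 (adjusted p = 0.0599). Among the 4 time points Dmkn was at the threshold (adjusted p = 0.0475, edgeR), and the call was lost in 15 of the 20 fits that left out 1 library (adjusted p of 0.0507 to 0.107). It was kept without ZT1 replicate 2, ZT7 replicate 5, ZT13 replicate 3, ZT19 replicate 2 or ZT19 replicate 4. The call was also lost with the replicate number as a block (adjusted p = 0.117, edgeR). With a covariate for the percentage of reads on genes the adjusted p was 0.167 (edgeR). From ZT7 to ZT13 the log2 fold change was -3.79 (standard error 0.81) and did not pass (adjusted p = 0.0629, edgeR). It passed in 5 of the 20 fits that left out 1 library, and with DESeq2 (adjusted p = 0.00342).

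Krtdap encodes keratinocyte differentiation-associated protein, a small secreted peptide of the suprabasal layers. Its libraries held 565.6, 1988, 1880, 133.1 and 1887 normalized counts at ZT1. At ZT7 they held 22987, 5494, 1324, 3095 and 1594 normalized counts. At ZT13 the counts themselves were 20, 1, 495, 225 and 3, which is 30.2, 1.1, 981.8, 239.8 and 0.65 normalized counts. At ZT19 the libraries held 4977, 472.9, 534.2, 22475 and 7763 normalized counts. All 5 libraries of ZT7 exceeded all 5 of ZT13, whereas ZT13 and ZT19 overlapped. The log2 fold change from ZT13 to ZT19 was 4.87 (standard error 1.34), but it did not pass (adjusted p = 0.0806, edgeR), nor did -4.80 from ZT7 to ZT13 (standard error 1.33, adjusted p = 0.323). The former was 6.79 without ZT13 replicate 3 and 3.80 without ZT19 replicate 4, and the latter was -6.77 without ZT13 replicate 3 and -3.54 without ZT7 replicate 1. DESeq2 called both differences (adjusted p = 0.0108 and 0.0487). With scaling on LEC markers, edgeR called the former (adjusted p = 0.0443). Krtdap varied among replicates far more than most genes, with a pooled SD of 2.66 on the log2 scale within time points, at the 99.8th percentile of the 8623 genes with a mean of at least 200 normalized counts (median 0.65). The corresponding SD was 1.46 for Dmkn, 0.96 for Trp63, 0.80 for Sbsn and 0.73 for Sfn.

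Sbsn encodes suprabasin, a further secreted protein of the suprabasal epidermis and the neighbour of Dmkn. Its range was 188.8 to 1013 normalized counts at ZT1, 267.5 to 780.9 at ZT7, 92.4 to 326.6 at ZT13 and 203.2 to 1054 at ZT19. The mean was lowest at ZT13, at 184 ± 101 (SD, n = 5), but the ranges of all 4 time points overlapped. Sbsn did not pass between ZT13 and ZT19 (log2 fold change 1.49, standard error 0.48, adjusted p = 0.0978, edgeR) or among the time points (adjusted p = 0.233). DESeq2 called it higher at ZT19 than at ZT13 (adjusted p = 0.0404), as did edgeR with scaling on LEC markers (adjusted p = 0.0328).

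Trp63 encodes p63, the transcription factor that defines the basal keratinocyte. It had 928, 650.9, 1289, 1325 and 364 normalized counts at ZT1 and 718.9, 1718, 1773, 496.1 and 951.8 at ZT7. At ZT13 it had 720.1, 64.7, 692.2, 556.4 and 519.4 normalized counts, and at ZT19 3079, 2121, 1924, 1129 and 1253. All 5 ZT19 libraries exceeded all 5 of ZT13, yet the difference of 1.90 on the log2 scale (standard error 0.48) did not pass (adjusted p = 0.0624, edgeR). DESeq2 called Trp63 higher at ZT19 (adjusted p = 0.0141), as did edgeR with scaling on LEC markers (adjusted p = 0.0281). ZT13 replicate 2 was far below the other ZT13 libraries. The count per gene does not separate the isoforms of p63.

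**Figure D2:**
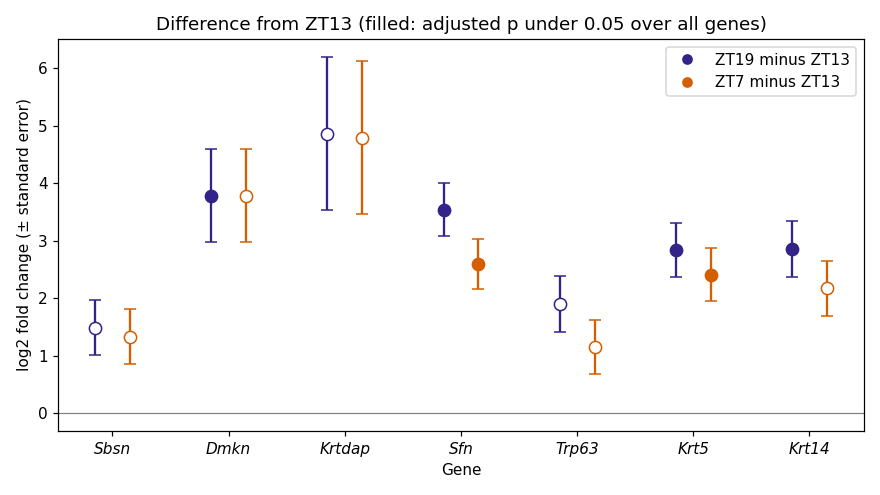
Log2 fold change from ZT13 to ZT19 (ZT19 minus ZT13) and, with the sign turned, between ZT7 and ZT13 (ZT7 minus ZT13), for the abundant members and the basal keratins Krt5 and Krt14. Bars are standard errors of the edgeR fit and filled points passed an adjusted p of 0.05. All points lie above 0, with Krtdap at 4.87 for ZT19 minus ZT13 carrying the widest error.

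No other pair of time points gave a called member. The count was 0 of 9 between ZT1 and ZT7 (0.00521% of genes called, 1 member at an unadjusted p under 0.05), between ZT1 and ZT13 (0.0208%, 3 members), between ZT1 and ZT19 (0.0156%, 6 members) and between ZT7 and ZT19 (0.0156%, 3 members) with edgeR. An unadjusted p under 0.05 was held by 4.97%, 5.37%, 21.6% and 19.7% of all genes in these pairs. DESeq2 called 0, 1, 3 and 2 members there, and 0.0854%, 0.79%, 10.8% and 12.2% of the genes that it tested. None had a 24-h rhythm in a cosine fit (0.0312% of genes called, edgeR), while Flg2, Tgm1 and Sbsn had an unadjusted p under 0.05 there (9.23% of all genes) and DESeq2 called 0 (0.791% of genes). Dbp, a clock-controlled transcription factor gene named as a reference, passed that test (adjusted p = 0.0126, edgeR) and had its highest mean at ZT7, at 766 ± 156 normalized counts (SD, n = 5). The order of the Sfn means was ZT19, ZT7, ZT1, ZT13. Neither ZT19 and ZT7 (adjusted p = 0.211, edgeR) nor ZT7 and ZT1 (adjusted p = 0.999, edgeR) were set apart by the test, nor were ZT1 and ZT13 (adjusted p = 0.257, edgeR).

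The trough at ZT13 was shared by the basal keratins. Krt14 had a mean of 7249 ± 3617 normalized counts (SD, n = 5) at ZT13 and 52650 ± 15221 at ZT19, higher at ZT19 by 2.86 on the log2 scale (standard error 0.49, adjusted p = 0.00368, edgeR), and Krt5 changed by 2.84 (standard error 0.47, adjusted p = 0.00308). The suprabasal keratin genes Krt1 and Krt10 also had their lowest means at ZT13. Neither passed between ZT13 and ZT19 (1.65 and 2.04 on the log2 scale, adjusted p = 0.320 and 0.247, edgeR). The summed level of the 10 basal keratinocyte markers was 16420 to 32533 normalized counts at ZT13 and 91784 to 157693 at ZT19, so that the summed level of this list moved with the members, and 5 of its genes passed. To describe the members against this background, their counts were divided by the sum of Krt5 and Krt14 counts of the same library. Per 1000 basal keratin counts, Sfn had 20.4 ± 10.2 counts at ZT13 and 31.4 ± 15.4 at ZT19 (SD, n = 5), with ranges of 10.4 to 37.2 and 14.0 to 50.6. The means at ZT1 and ZT7 were 21.6 ± 7.17 and 25.5 ± 6.03 counts. On this scale the ranges of Sfn overlapped at all time points, whereas in normalized counts the ZT13 range lay below all others.

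The other members differed in this ratio. Trp63 had its highest mean at ZT13 on this scale, at 49.2 ± 28.1 counts per 1000 basal keratin counts, against 28.9 ± 19.5 at ZT19 (SD, n = 5). The order of these means was thus turned, but the ranges overlapped (14.7 to 92.0 at ZT13 and 13.2 to 57.6 at ZT19). Sbsn had 25.4 ± 27.8 at ZT13, where ZT13 replicate 2 alone reached 74.4, and 6.92 ± 4.02 at ZT19. Its ranges overlapped too (6.47 to 74.4 at ZT13 and 3.63 to 13.3 at ZT19). Dmkn stayed lowest at ZT13, with 13.4 ± 12.9 at ZT13, 41.2 ± 30.0 at ZT7 and 30.2 ± 18.2 at ZT19, while the ranges overlapped. Krtdap ran from 0.115 to 61.5 at ZT13 and from 30.4 to 381 at ZT7, again with overlap, so that the Krtdap transcript varied by orders of magnitude relative to those of the basal keratins. These ratios are a description without a test.

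**Figure D3:**
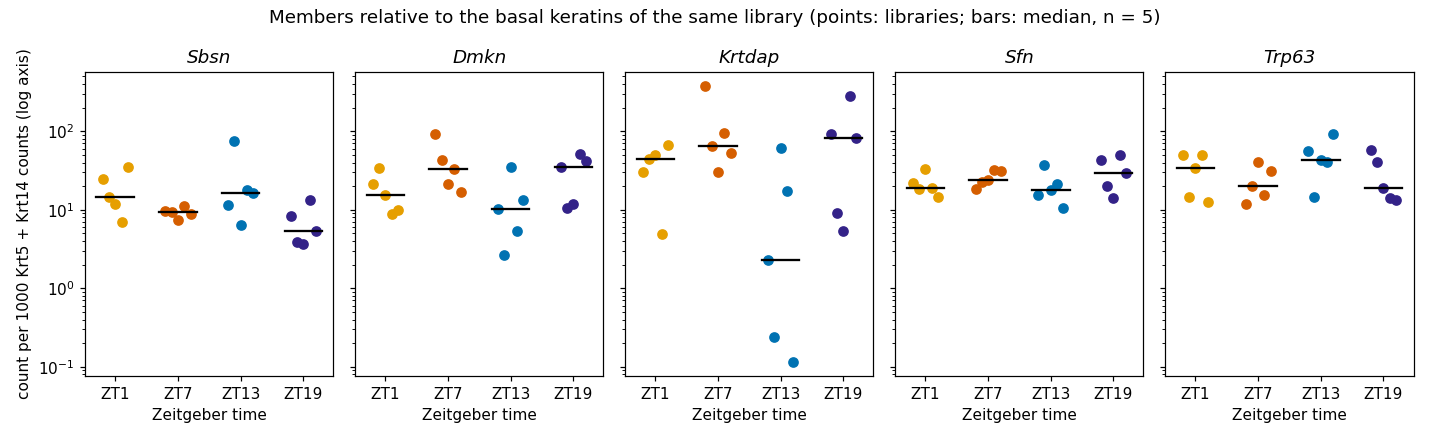
Counts of the 5 abundant members per 1000 Krt5 and Krt14 counts of the same library, on a log axis, by zeitgeber time. Points are libraries and bars are medians of 5. Sfn stays between 10.4 and 50.6 throughout, whereas Krtdap spans 0.115 to 381.

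The cornified envelope members were sparse. Loricrin, the main envelope protein gene, Lor, had 0 to 77 counts per library and at least 1 count in 15 of the 20 libraries. Involucrin, Ivl, an early scaffold of the envelope, had 0 to 121 counts and at least 1 in 17 libraries. Flg2, which encodes a filaggrin-type protein, and Tgm1, which encodes the cross-linking enzyme transglutaminase 1, each had counts in 14 libraries. A count of 3, the floor that a count of 0 allows, corresponds to 0.0714 to 0.670 CPM (counts scaled to the total of the library) depending on the library, for counting error only, since cDNA was amplified without molecular identifiers. None of these 4 members passed any test with edgeR over the 20 libraries.

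Flg2 and Tgm1 had few counts at ZT19. Flg2 had 56, 18, 33, 26 and 6 counts at ZT1 and 2, 0, 34, 88 and 214 at ZT7. At ZT13 it had 70, 1, 20, 0 and 0 counts, and at ZT19 0, 3, 13, 0 and 0. Tgm1 had 36, 15, 17, 34 and 0 counts at ZT1 and 5, 7, 26, 59 and 142 at ZT7. At ZT13 it had 29, 1, 61, 22 and 0 counts, and in the 5 ZT19 libraries 3 counts in all, in replicate 3. By normalized counts, all 5 ZT1 libraries exceeded all 5 ZT19 libraries for Flg2, as all 5 ZT7 libraries did for Tgm1. How common such a separation was over all genes was not counted. ZT19 had the highest median depth (22161080 counts on genes) but the lowest median number of genes with a count. That number was 15613 at ZT19, 20692 at ZT1, 20002 at ZT7 and 19732 at ZT13. Neither gene passed between ZT13 and ZT19 (adjusted p = 0.246 for Flg2 and 0.0911 for Tgm1, edgeR). Without ZT13 replicate 5, Tgm1 was called lower at ZT19 (log2 fold change -6.65, standard error 1.75, adjusted p = 0.0429, edgeR), as were 2.67% of the genes tested. DESeq2 also called Tgm1 lower at ZT19 than at ZT13 (7.8% of genes) and called it among the 4 time points (adjusted p = 0.0351, 3.77% of genes). It called both genes lower at ZT19 than at ZT1 and than at ZT7, where 8.23% and 11.3% of all genes were called lower.

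The share of reads on genes moved with these counts. In the 9 libraries with 35.0 to 81.6% of reads on genes, which are all 5 of ZT19, 2 of ZT7 and 2 of ZT13, Flg2 had 0 to 13 counts and Tgm1 0 to 7. In the 11 libraries with 12.7 to 29.5%, they had 0 to 214 and 0 to 142 counts, and at least 1 count in 10 each. This division was made after the values were seen. After subtraction of time-point means, the Pearson r with the logit (base 2) of this share over the 20 libraries was -0.68 for Flg2 (Spearman rho -0.66), -0.65 for Tgm1 (-0.67), -0.61 for Ivl (-0.59) and -0.36 for Lor (-0.30), as a description of libraries that also differ in depth. For Sbsn, Dmkn, Krtdap, Sfn and Trp63 the r was between -0.32 and 0.10. With this logit as a covariate, the fitted direction of Flg2 between ZT13 and ZT19 turned, from -3.89 on the log2 scale (standard error 1.84) to 1.98 (adjusted p = 0.467, edgeR). Under the same covariate Sfn stayed called between ZT13 and ZT19. Dmkn was not called (adjusted p = 0.105, edgeR), at a log2 fold change of 3.74 compared with 3.79 without the covariate.

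**Figure D4:**
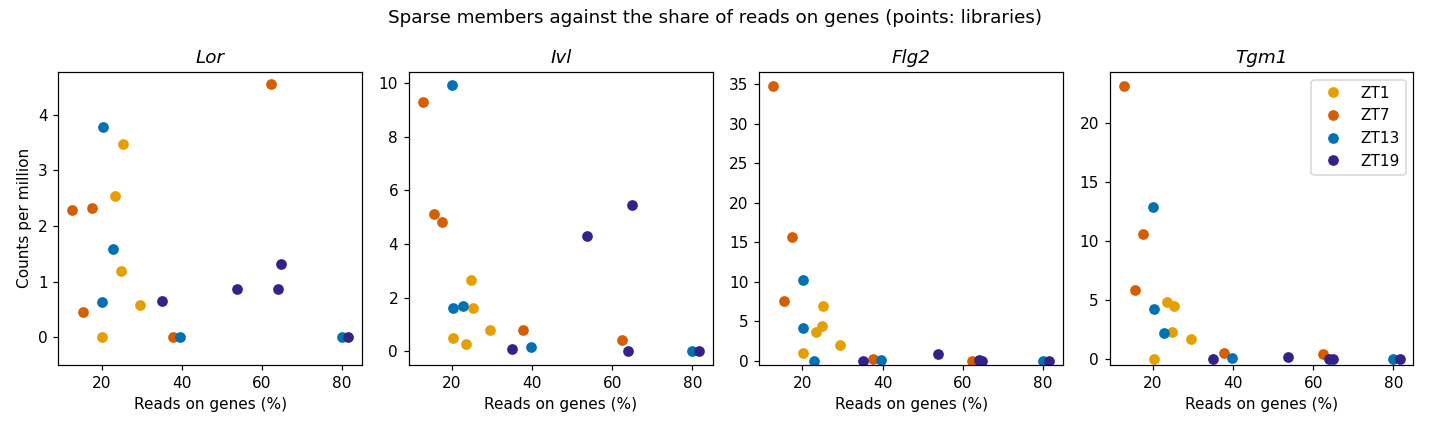
CPM of Lor, Ivl, Flg2 and Tgm1 against the percentage of reads on genes in each library, coloured by time point. Flg2 and Tgm1 have at most 0.860 and 0.495 CPM in the 9 libraries above 30% of reads on genes.

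Replicates of a time point were used to ask which members varied together. Likeness was taken as the Pearson r of log2(normalized count + 1) over 20 libraries after subtraction of time-point means, and is given as a description, since libraries share depth and composition. The highest values among member pairs were 0.78 for Flg2 with Tgm1, 0.78 for Dmkn with Krtdap and 0.74 for Krtdap with Sfn. Sbsn, which lies beside Dmkn and Krtdap, had 0.21 and 0.42 with them (0.11 to 0.44 and 0.34 to 0.61 when 1 library was left out) and -0.52 with Trp63. Dmkn had 0.80 with Krt14, and Sfn had 0.83 with the suprabasal keratin gene Krt10, while the LEC gene Prox1 ranged from -0.53 with Ivl to 0.24 with Trp63.

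**Figure D5:**
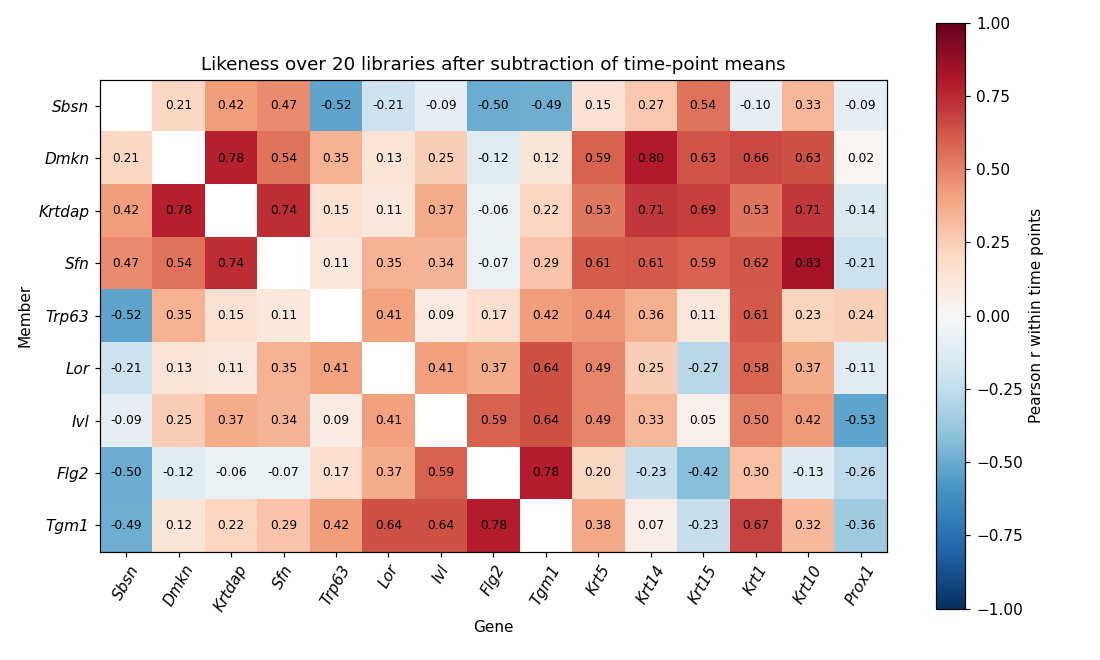
Pearson r within time points between each member (rows) and the members and reference genes (columns) over 20 libraries. Flg2 with Tgm1 and Dmkn with Krtdap reach 0.78, and Sbsn is negative with Trp63 (-0.52).

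Outside the members, the 3 genes most like each one by this measure were found among 12563 genes with a mean of at least 50 normalized counts. For Dmkn they included Serpinb5 (0.88) and the metallothionein gene Mt4 (0.85), and for Krtdap they were Mt4 (0.90), Gstm2 (0.86) and Car5b (0.86). For Sfn they were Krt10 (0.83), Mt4 (0.82) and the lipoxygenase gene Alox12e (0.82). For Trp63 they were Fgfr2 (0.92), Ttc39a (0.92) and Prkcd (0.90), and for Sbsn Ubn1, Dbi and Tmco1 (0.86 to 0.88). Mt4 was thus shared by Dmkn, Krtdap and Sfn. It had means of 136, 611, 26.8 and 361 normalized counts at ZT1, ZT7, ZT13 and ZT19 and did not pass among the time points (adjusted p = 0.171, edgeR). Lor was most like Trpv6 (0.89), Cntrob and Nr4a2, Ivl most like Ankrd33b (0.84), Fbln1 and Greb1, Flg2 most like Ticrr (0.86), Slc25a47 and Fat4, and Tgm1 most like Ahctf1 (0.89), Col6a6 and Ccdc88b.

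The members were set beside further genes of the epidermal programme, with the median log2 fold change from ZT13 to ZT19 over all genes tested at -0.22 and 0.5% of all genes called higher at ZT19 with edgeR. Of the 10 basal keratinocyte markers, 5 were higher at ZT19 than at ZT13 (median 2.03), among them Krt15 (3.50, adjusted p = 0.000184, edgeR) and Col17a1, a hemidesmosome collagen gene (2.79, adjusted p = 0.00368). Of 13 suprabasal keratin and adhesion genes, 3 were higher at ZT19 (median 1.65), namely the desmosomal gene Dsg1a (3.91), Perp (2.29) and Pkp1 (2.10), and Krt80 had 3.49 without passing (adjusted p = 0.0708). DESeq2 called these 4 higher and the desmosomal cadherin gene Dsc1 lower at ZT19 (-3.05 with DESeq2). Of 13 p63 target genes, 6 were higher at ZT19 (median 1.45), but this list holds Sfn itself. It also shares Krt5, Krt14 and Col17a1 with the basal markers and Perp with the suprabasal keratin and adhesion genes. Of the 25 epidermal transcription regulators 3 were higher at ZT19, namely Hopx (2.52), Sox9 (1.44) and Gata3 (1.83), and the median was 0.47. In this list 14 of the 25 log2 fold changes lay above 0, and Cebpa had -1.36 without passing (adjusted p = 0.277).

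No gene of the late barrier lists was called with edgeR. Of 32 cornified envelope and filaggrin-type genes 14 passed the filter on low counts and 0 were called in either direction with edgeR, among the time points or between ZT13 and ZT19, although 6 had an unadjusted p under 0.05 among the time points and 8 between ZT13 and ZT19 (median log2 fold change -0.46). Over all genes tested these shares were 15.7% and 19.2%. DESeq2 called 3 of them higher and 1 lower at ZT19 than at ZT13, where it called 1.87% of all genes higher and 7.8% lower. Within this list Lypd3 (3.08, adjusted p = 0.0530) and the calmodulin-like gene Calm4 (3.75, adjusted p = 0.0911) had lower means at ZT13 than at ZT19 without passing. The skin galectin gene Lgals7 had 2.12 (adjusted p = 0.0968) and Lce1m had 0 counts in all 5 ZT19 libraries. All 22 cross-linking, lipid and protease genes of the barrier passed the filter and 0 were called with edgeR, while 5 had an unadjusted p under 0.05 among the time points and 4 between ZT13 and ZT19 (median 0.46). DESeq2 called 2 of the 22, Tjp1 and Ugcg, lower at ZT19 than at ZT13, a share near the 7.8% over all genes. The genes of this list with the smallest p among the time points were Elovl4 and Cers3, which act in the synthesis of barrier lipids, and the tight junction genes Tjp1 and Cldn1. From ZT13 to ZT19 Cers3 had a log2 fold change of -1.53, Tjp1 of -0.77 and Cldn1 of 1.11, and none of the 4 passed with edgeR.

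Markers of other cell types were mostly not called. Of 9 LEC markers 0 were called with edgeR or DESeq2 and 0 had an unadjusted p under 0.05 among the time points (median log2 fold change from ZT13 to ZT19 -0.45), with summed levels of 87831 to 128294 normalized counts at ZT13 and 79817 to 102882 at ZT19. Blood endothelial, fibroblast and leukocyte markers, 8 each, had 0 called with edgeR, with medians of -2.05, 0.21 and -1.57 and with 1, 3 and 0 at an unadjusted p under 0.05 among the time points. Between ZT13 and ZT19 these counts were 4, 0 and 0, and all 8 blood endothelial and all 8 leukocyte markers had a log2 fold change below 0. DESeq2 called 2 of the blood endothelial markers, Plvap and Selp, lower at ZT19 than at ZT13, and 0 of the fibroblast and leukocyte markers. In the leukocyte list, Ptprc ranged from 0 to 255 and Cd3e from 0 to 29.7 normalized counts. Of 12 hair follicle and sebocyte markers 2 were higher at ZT19, namely Krt79 (1.96) and Elovl3 (2.99), with summed levels of 1054 to 2285 at ZT13 and 1984 to 10147 at ZT19. Krt17 had 2.38 without passing (adjusted p = 0.227). The hair keratin gene Krt35 had 13.03 ± 15.4 normalized counts (SD, n = 5) at ZT13 and 0 counts in all 5 ZT19 libraries, and was called lower at ZT19 than at ZT13 with DESeq2 and not with edgeR (adjusted p = 0.0911). Of 16 markers of melanocytes, Merkel cells and other skin cells 0 were called with edgeR, 0 with DESeq2 between ZT13 and ZT19, and 1 had an unadjusted p under 0.05 among the time points. Whether the number of epidermal transcripts per sorted pool differed with the time point or the collection was not tested, nor was the cell source of these transcripts.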

How the data were processed

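RNA of sorted dermal LECs was sequenced in 20 libraries (4 time points with 5 replicates each) from full-length amplified cDNA. The submitters' processing notes name STAR, HTSeq 1.0.0, DESeq2 2.11.40.6 and mm10. The authors deposited raw counts per gene symbol with HTSeq's summary totals, which held 47.5 to 96.7% of all records and were left out of library sizes. Multi-mapped and ambiguous reads are in those totals, so genes with near-identical copies may be undercounted.

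Counts were tested in R 4.3.3 with edgeR 4.0.16 (TMM factors, filterByExpr with the time points as groups, quasi-likelihood F-test on the 20 libraries together), with adjusted p-values (Benjamini-Hochberg) over 19209 genes and a threshold of 0.05. Fits were made among the 4 time points, for the 6 pairs and for a 24-h cosine with 2 terms. Likeness and other log2 values used a pseudocount of 1. The members and gene lists were chosen with earlier results of these data known. All members were named, with the 3 genes most like each member, reference genes fixed by name and the 4 genes of smallest p in each other epidermal and the hair follicle list. The rule covers these 4 in the other marker lists and among clock genes too, but few of them are named, and the marker lists are given by counts. Cd3e, Ccl21a, Dsc1 and Ugcg are exceptions, picked once their values were known, and 1 gene most like a member is not reported here. Exon lengths came from GENCODE M21 (98.4% of symbols matched) and sequences from RefSeq. The fits were tested on simulated data. No 2 libraries of a time point agreed within sampling noise. Alternatives were DESeq2 1.42.0, other normalizations and filters, thinned counts, the replicate number as a block, the logit (base 2) of the percentage of reads on genes in a covariate term, scaling on LEC markers, pairs fitted alone, CPM from raw counts and each library left out. A fit without the library with the highest share of reads on genes at each time point was chosen after the data were seen.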

Additional observations from a re-analysis of the deposited data

Results flagged for a closer look

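In 5 of the 36 groups of 5 replicates (9 members at 4 time points), 1 library stood so far from the other 4 on the log2 scale that its gap exceeded the 95% critical value of Dixon's ratio, where chance alone gives about 1.8. For Sfn, ZT7 replicate 2 had 1886 normalized counts against 957 to 1095 in the others (gap 0.801 of the range). For Trp63, ZT13 replicate 2 had 64.7 normalized counts against 519.4 to 720.1 (0.864). For Lor, ZT19 replicate 1 had 0 counts against 8.26 to 16.0 normalized counts (0.785). For Tgm1, ZT1 replicate 5 had 0 counts against 25.2 to 52.6 normalized counts (0.820), and ZT19 replicate 3 had 3 counts where the others had 0. The gap of 1, the whole range, holds there for any count above 0. The groups of Lor and Tgm1 thus rest on libraries with 0 counts of sparse genes.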

How the results depend on the processing

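Counts of called members moved with the processing. Among the 4 time points 1 member, Sfn, was called with RLE or upper-quartile factors, the stricter filter, the replicate block or a covariate for the percentage of reads on genes (2 in the reported fit), whereas DESeq2, with and without independent filtering, called 3, namely Sfn, Dmkn and Tgm1 (adjusted p of Tgm1 0.0351 and 0.0455). Between ZT13 and ZT19 the 2 called members became 6 with DESeq2 in both forms, 5 with scaling on LEC markers and 1 with the covariate or with the pair fitted alone. Krtdap, Sbsn and Trp63 were added with DESeq2 and with scaling on LEC markers, and Tgm1, lower at ZT19, with DESeq2. Over all genes the share called higher at ZT19 rose likewise, from 0.5% to 1.87% with DESeq2, with 7.8% lower, and to 3.0% with LEC scaling. Between ZT7 and ZT13 the single call became 3 with DESeq2, 2 with DESeq2 without independent filtering, TMMwsp, no filter or scaling on LEC markers, and 0 without the 4 libraries that had the highest share of reads on genes at their time points. DESeq2, in both forms, called 1 member between ZT1 and ZT13, 3 between ZT1 and ZT19 and 2 between ZT7 and ZT19, and scaling on LEC markers called 1 between ZT1 and ZT19. Genes called among the time points numbered 81, against 672 and 540 with DESeq2, 52 with upper-quartile factors, 31 with the replicate block, 49 with the covariate and 273 with scaling on LEC markers. The fold change of Flg2 turned from -3.89 to 1.98 with the covariate. The cause was not tested in any of these. Of the values followed for single members and pairs of members (tests among the time points, the fold changes named for the abundant members and Flg2, time points of the highest mean, likeness), 546 kept their direction and their side of the threshold, 28 gained and 28 lost a call, 1 was reversed (Flg2) and 5 moved. These 5 are the time points of the highest mean of Sbsn, Dmkn, Krtdap and Lor and the likeness of Krtdap and Trp63.

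Leaving out 1 library at a time gave 1 to 3 members among the time points, 1 to 5 between ZT13 and ZT19, 0 to 3 between ZT7 and ZT13, 0 to 1 between ZT1 and ZT19, and 30 to 178 genes among the time points. Between ZT13 and ZT19, Krtdap was called without ZT13 replicate 3 (adjusted p = 0.0196, edgeR) or ZT13 replicate 5 (0.0464), Trp63 without ZT13 replicate 5 (0.0450) or ZT19 replicate 4 (0.0465), and 5 members in all without ZT13 replicate 5, the fifth being Tgm1, which was lower at ZT19 (0.0429). Without ZT13 replicate 3 Krtdap was also called among the time points (0.0413) and, with Dmkn, between ZT7 and ZT13. Without ZT13 replicate 5 or ZT19 replicate 4, Sfn was called between ZT1 and ZT19.

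The median log2 fold change from ZT13 to ZT19 over the genes tested was -0.22 in the reported fit, and with other scalings -0.39 (RLE), -0.45 (upper-quartile), -0.35 (TMMwsp) and -0.01 (LEC markers). It was -0.51 with DESeq2, which tested 20964 genes, and 0.22 with the covariate. In the reported fit 96 genes were called higher and 17 lower at ZT19 (85.0% higher). The counts were 79 and 38 with RLE (67.5%), 68 and 52 with upper-quartile factors (56.7%), 84 and 42 with TMMwsp (66.7%), 576 and 74 with scaling on LEC markers (88.6%), and 393 and 1636 with DESeq2 (19.4%). Leaving out ZT13 replicate 5 gave 324 higher and 529 lower (38.0%), ZT19 replicate 4 94 and 47 (66.7%), and the 4 libraries above 253 and 168 (60.1%). Sbsn, Dmkn, Krtdap, Sfn and Trp63 stayed higher at ZT19 than at ZT13 in every fit that was run. In CPM without normalization factors, the highest mean moved to ZT7 for Sbsn, Dmkn, Krtdap and Lor, and stayed at ZT7 for Ivl, Flg2 and Tgm1 and at ZT19 for Sfn and Trp63. The replicate numbers do not pair the samples by the labels, and same-numbered libraries correlated by -0.04 to 0.17 on average between time points (deviations from group means). With the replicate block the adjusted p of Dmkn among the time points was 0.117.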
